A study of Bos taurus with 9 samples.

Results

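Matrix metalloproteinases (MMPs) and their tissue inhibitors (TIMPs) were followed in cultured bovine endometrium through 10 genes: MMP1, MMP2, MMP3, MMP9, MMP13, MMP14, MMP19, TIMP1, TIMP2 and TIMP3. Members were all probe sets, the groups of short probes that report 1 transcript on an Affymetrix bovine array, whose annotation gave 1 of these symbols alone. This found 19 probe sets for 10 genes, among 24016 probe sets tested and 9155 named genes. Where a gene had more than 1, they are lettered from the brightest (A) down, and the plots give their identifiers. Endometrial cells came from 9 Holstein/Polish Black and White cows killed on days 2 to 5 of the oestrous cycle, and stromal and epithelial cells were plated together at 3 to 1. The Control group received phosphate-buffered saline (PBS), the LPA group the lysophosphatidic acid 1-oleoyl-sn-glycerol 3-phosphate at 1e-06 M, and the LPA+IFNt group LPA together with 1000 antiviral units of interferon tau (no volume is stated), each for 6 h in serum-free medium with albumin. There were 3 arrays per group, and each array carried RNA pooled from 3 cows. With 9 arrays of 3 cows each from 9 cows, arrays must share cows. The labels do not say which, or whether the same pools of cows received every treatment. The p-values measure the spread between these arrays only. The reported fit took the 9 arrays as independent. Arrays with the same replicate number deviated together across groups (correlations of 0.19 to 0.49), so a fit with that number as a block was also made. Interferon tau without LPA was not analysed here.

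MMPs are zinc-dependent enzymes that are secreted or held at the membrane as inactive precursors and cut the proteins of the extracellular matrix once a propeptide is removed. TIMPs bind the active site and block it, so the balance of both sets how fast collagen and basement membrane are broken down. In the endometrium they are known for remodelling tissue during the cycle and around implantation. LPA, a signalling lipid, acts on cells through receptors coupled to G proteins. Interferon tau is the protein with which the ruminant embryo makes itself known to the uterus.

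All values are on the log2 scale, where a difference of 1 is a doubling, and were made so that the arrays have like distributions. Array medians lay between 4.29 and 4.37, and any 2 arrays correlated at 0.9909 or above over the probe sets tested. Interferon tau acted on the arrays labelled with it: ISG15, an antiviral ubiquitin-like protein, stood at 7.93 in control, 8.64 with LPA and 14.56 with LPA+IFNt, and the antiviral GTPase gene MX1 was higher than with LPA by 5.12. MX2, a related gene, read 9.71 with LPA+IFNt and, at 2.12 and 2.17, was not above background in Control and LPA. The cell types in the labels were borne out by their markers. All 15 measured epithelial markers (EPCAM 14.05, KRT19 13.59) and all 13 stromal markers (VIM 14.14, DCN 14.68) had means above 2.80, the highest value of 3 control probe sets for a bacterial trp transcript. Of leukocyte markers 7 of 19 did, of smooth muscle and pericyte markers 6 of 9, and of endothelial markers 1 of 9; The brightest of these were S100A8 (7.30), CD14 (6.96) and LCP1 (6.29) for leukocytes, ACTA2 (10.29), CNN1 (8.20) and MCAM (7.39) for smooth muscle and pericytes, and FLT1 (3.42) for endothelium. ITGAM, CSF1R, TYROBP, MPO, CDH5, VWF and MYH11 were among those below it.

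Every one of the 10 genes had a probe set above that value, 16 of 19 in all. The exceptions were probe set B of MMP19 (mean 2.63), and B (2.11) and C (1.90) of MMP14, whose values say nothing of a change. Differences were tested with limma over all probe sets, and a probe set is called where its Benjamini-Hochberg adjusted p over all 24016 lies under 0.05. In LPA against control 0 of 19 member probe sets were called, where 0.0708% of all probe sets were. An unadjusted p under 0.05 was found for 7, against 8.30% of all and 12.9% of the 15053 above the trp value. In LPA+IFNt against control 1 was called, a lower TIMP2 probe set, where 5.34% of all were called and 2.86% were called lower. In LPA+IFNt against LPA 4 were called, all lower, from MMP1, MMP3 and TIMP2, where 6.54% of all were called and 3.98% were called lower. Shares over all probe sets include many below the trp value, whereas 16 of 19 members lay above it. With only the 15053 above it fitted, 37, 1437 and 1719 were called in the 3 comparisons, of which 0, 2 and 4 were member probe sets. Limma's F test over the 3 groups called the same 4 probe sets, where it called 5.99% of all. MMP1 passed it narrowly (adjusted p = 0.0494) and lost that call in 8 of 9 fits with 1 array left out (0.0412 to 0.145) and in 6 of 8 other alternatives (0.0166 to 0.592).

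The collagenases cut fibrillar collagen. MMP1, interstitial collagenase, stood at 13.47, 13.40 and 13.46 in Control, at 13.59, 13.51 and 13.59 with LPA and at 13.38, 13.38 and 13.29 with LPA+IFNt (replicates 1 to 3). The LPA arrays lay above all others and the LPA+IFNt arrays below all others, within a total span of 0.3 log2 units. MMP1 was lower in LPA+IFNt than in LPA by a log2 difference of -0.21 (SE 0.04, limma adjusted p = 0.0216), that is 0.862-fold. It stood at 0.12 in LPA against control (adjusted p = 0.482) and at -0.10 in LPA+IFNt against control (0.294). The call rested on single arrays: adjusted p was 0.081 without LPA replicate 1, 0.0759 without LPA replicate 3 and 0.0672 without LPA+IFNt replicate 3. It was also lost with only the 2 groups in the fit (0.0641) and with arrays scaled on spiked-in controls (0.373). In these 5 settings the difference was -0.21 to -0.18.

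MMP13, collagenase 3, was the member with the widest change after LPA in fitted values. Its arrays scattered widely within groups, and it was not called in the reported fit. Probe set B, annotated with the RefSeq mRNA, read 8.97, 9.09 and 9.83 in Control, 10.68, 9.74 and 11.43 with LPA, and 9.25, 9.25 and 9.64 with LPA+IFNt. LPA replicates 1 and 3 were the highest of the 9 arrays, while LPA replicate 2 fell below Control replicate 3. Replicate 3 was the highest array of each group. Between arrays of the same number, LPA lay above Control and LPA+IFNt below LPA for all 3 numbers. How often this holds over all probe sets was not counted. The difference was 1.32 in LPA against control (2.50-fold, SE 0.42, 95% interval 0.35 to 2.30, adjusted p = 0.431), 0.08 in LPA+IFNt against control (SE 0.42, adjusted p = 0.917) and -1.24 in LPA+IFNt against LPA (SE 0.42, adjusted p = 0.161). With the replicate number as a block, the last of these was called (adjusted p = 0.0429), and so was the F test (adjusted p = 0.0499). LPA against control was not called with the block (adjusted p = 0.133). Probe set A, annotated with an expressed sequence tag, had 11.73, 11.70 and 12.18 in Control, 12.19, 11.77 and 12.89 with LPA and 11.72, 12.00 and 11.87 with LPA+IFNt, with the same 2 LPA arrays highest. Its differences were smaller, 0.41 (adjusted p = 0.818), 0.00 (0.997) and -0.42 (0.539). The fit with array weights called probe set B in LPA against control (1.80, adjusted p = 0.0489). That fit called 449 probe sets in all there, against 17 in the reported fit.

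**Figure D1:**
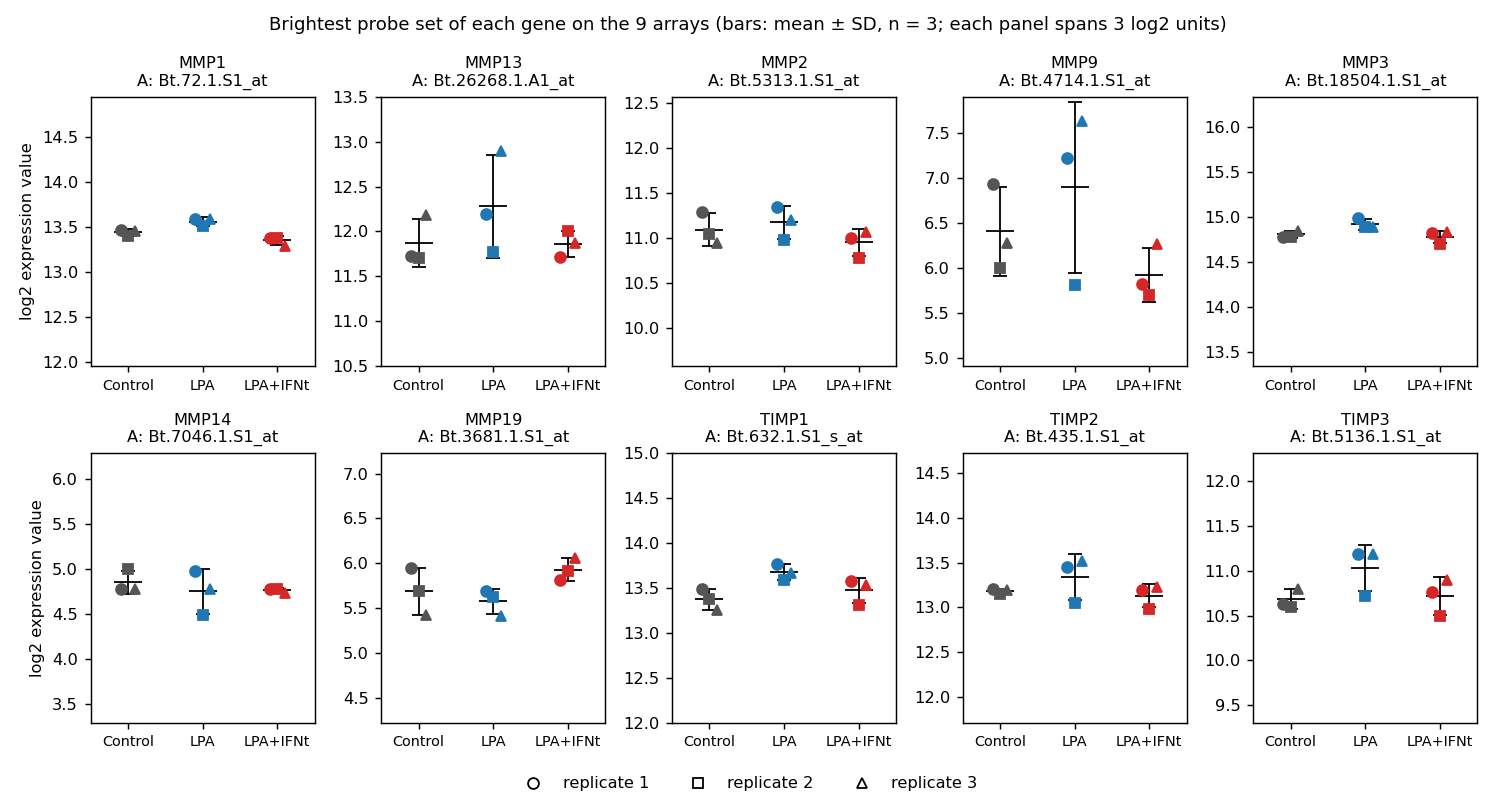
Log2 expression value (vertical axis) of the brightest probe set of each of the 10 genes on each array, by group (horizontal axis), with symbols for replicate number and bars for mean ± SD (n = 3). LPA replicate 2 lies below LPA replicates 1 and 3 for MMP1, MMP2, MMP9, MMP13, MMP14, TIMP1, TIMP2 and TIMP3. MMP1 shows 3 groups that do not overlap within 0.3 log2 units.

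The gelatinases cut denatured collagen and basement membrane collagen. MMP9 gave 6.94, 6.00 and 6.28 in Control, 7.23, 5.82 and 7.64 with LPA, and 5.83, 5.70 and 6.27 with LPA+IFNt. The highest arrays were again LPA replicates 1 and 3, LPA replicate 2 was below all of Control, and the groups overlapped. The MMP9 differences were 0.49 in LPA against control (SE 0.47, 95% interval -0.60 to 1.58), -0.47 in LPA+IFNt against control (-1.56 to 0.61) and -0.96 in LPA+IFNt against LPA (-2.05 to 0.13, adjusted p = 0.359). MMP2, made by stromal cells and activated at the cell surface, ranged from 10.94 to 11.29 in Control, 10.97 to 11.34 with LPA and 10.78 to 11.06 with LPA+IFNt. Its differences of 0.08, -0.14 and -0.22 (SE 0.13) had adjusted p of 0.469 or more, and the 95% intervals lay between -0.52 and 0.38.

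MMP3, stromelysin 1, cuts a broad range of matrix proteins and activates other pro-MMPs. Probe set B, whose type (suffix a) marks probes shared by alternative transcripts of 1 gene, read 13.48, 13.63 and 13.69 in Control, 14.01, 13.94 and 13.97 with LPA and 13.66, 13.60 and 13.60 with LPA+IFNt. The 3 LPA arrays lay above all other arrays, and the LPA+IFNt arrays lay within the range of Control. MMP3 by this probe set was lower in LPA+IFNt than in LPA by -0.36 (SE 0.06, adjusted p = 0.00877, 0.780-fold). After LPA against control it stood at 0.38 (SE 0.06, 1.30-fold, unadjusted p = 0.000174, adjusted p = 0.0748), just outside the threshold, and it was called there with a variance trend (adjusted p = 0.0489) and with array weights (0.0136). Those 2 fits called 36 and 449 probe sets in all there, against 17 in the reported fit. The difference of MMP3 probe set B in LPA+IFNt against control was 0.02 (95% interval -0.11 to 0.15).

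The other probe sets of MMP3 moved less. Probe set A, which at 14.70 to 14.99 lay near the highest value in the table (15.66), had differences of 0.12 (adjusted p = 0.572), -0.02 (0.782) and -0.14 (0.163), with the LPA arrays above both other groups. Probe set C ranged from 6.91 to 7.66 with all groups overlapping and differences of 0.13, 0.12 and -0.01. The call in LPA+IFNt against LPA belongs to 1 of 3 probe sets, and A had an unadjusted p of 0.0195 there (limma). With the 3 averaged, MMP3 stood at -0.17 in LPA+IFNt against LPA (SE 0.08, adjusted p = 0.314). In that average C, with an SE of 0.19, counts as much as A and B. C is annotated with the same sequence record as B but read far lower, and what it reports was not checked. The call of probe set B was also lost with scaling on spiked-in controls (-0.34, adjusted p = 0.0747), and held without each array in turn.

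MMP1, MMP3 and MMP13 are neighbours: in the RefSeq table of assembly ARS-UCD2.0 the protein-coding genes MMP13, MMP12, MMP3 and MMP1 follow each other on 1 chromosome. MMP12 was not analysed here.

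MMP14 is a membrane-bound MMP that activates pro-MMP2 together with TIMP2. Its only probe set above the trp value, A, lay between 4.49 and 5.00 on the 9 arrays with overlapping groups, and its differences were -0.10, -0.09 and 0.01 (SE 0.12, adjusted p of 0.685 or more). MMP19, a secreted MMP, was by probe set A at 5.95, 5.69 and 5.43 in Control, 5.69, 5.63 and 5.42 with LPA and 5.81, 5.91 and 6.06 with LPA+IFNt. It was the only member with the LPA+IFNt arrays above the LPA arrays, by 0.35 (SE 0.14, unadjusted p = 0.0367, adjusted p = 0.239).

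**Figure D2:**
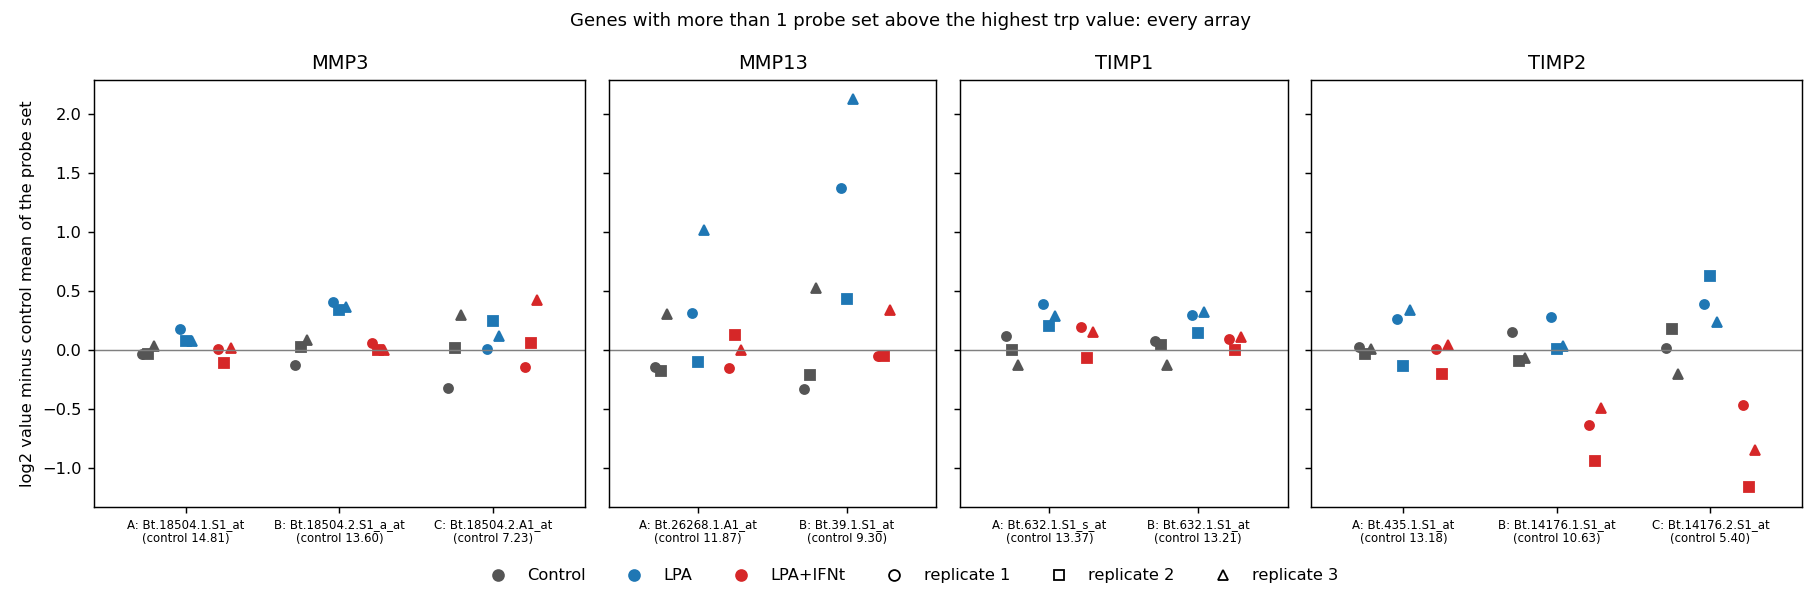
Log2 value on each array minus the probe set's own control mean (vertical axis) for each probe set of MMP3, MMP13, TIMP1 and TIMP2 above the trp value (horizontal axis, with control means). For TIMP2 the LPA+IFNt arrays lie below the others for probe sets B and C and overlap them for probe set A.

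TIMP2, the inhibitor that also links pro-MMP2 to MMP14, was the one member called in both comparisons with LPA+IFNt. Probe set B had 10.79, 10.54 and 10.57 in Control, 10.91, 10.64 and 10.67 with LPA, and 10.00, 9.69 and 10.14 with LPA+IFNt. The LPA+IFNt arrays lay below all 6 others, which overlapped. It fell by 0.69 on the log2 scale in LPA+IFNt against control (0.621-fold, SE 0.13, adjusted p = 0.024) and by 0.79 in LPA+IFNt against LPA (0.577-fold, SE 0.13, adjusted p = 0.0117).

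Probe set C gave 5.42, 5.58 and 5.20 in Control, 5.79, 6.03 and 5.64 with LPA and 4.94, 4.24 and 4.56 with LPA+IFNt, so that the 3 groups did not overlap. TIMP2 by this probe set was lower in LPA+IFNt than in LPA by -1.24 (0.424-fold, SE 0.19, adjusted p = 0.00821). Against control it stood at -0.82 (SE 0.19, adjusted p = 0.0511), and at 0.42 in LPA against control (adjusted p = 0.624). Both these probe sets are annotated with expressed sequence tags.

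The TIMP2 probe set annotated with the RefSeq mRNA, A, had no call in either comparison. It read 13.21, 13.15 and 13.19 in Control, 13.45, 13.05 and 13.52 with LPA and 13.19, 12.98 and 13.23 with LPA+IFNt, with all groups overlapping. Its difference was -0.05 in LPA+IFNt against control (95% interval -0.34 to 0.24, adjusted p = 0.824) and -0.21 in LPA+IFNt against LPA (-0.49 to 0.08, adjusted p = 0.495). Within an array, it exceeded probe set B by 2.55 ± 0.12 in Control, 2.60 ± 0.23 with LPA and 3.19 ± 0.10 with LPA+IFNt (SD, n = 3), a gap that was not tested. With the 3 probe sets averaged, TIMP2 was called in LPA+IFNt against control (-0.52, SE 0.10, adjusted p = 0.0254) and against LPA (-0.75, SE 0.10, adjusted p = 0.00477).

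The TIMP2 calls differed in how far they rested on single arrays. Against LPA, probe sets B and C were called under all 17 alternatives that fit them singly, with adjusted p of at most 0.0459 and 0.0353. Against control, probe set B lost its call without Control replicate 1 (adjusted p = 0.0862), Control replicate 2 (0.0602), Control replicate 3 (0.0602) or LPA+IFNt replicate 1 (0.0639), and with no variance moderation (0.0756). Probe set C gained one there without LPA+IFNt replicate 1 (0.0244), without dim probe sets (0.0231), with median centring (0.0284), with spike-in scaling (0.00984), with a variance trend (0.0327) and with array weights (0.00353). Array weights called 4757 probe sets in all there, against 1282 in the reported fit.

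**Figure D3:**
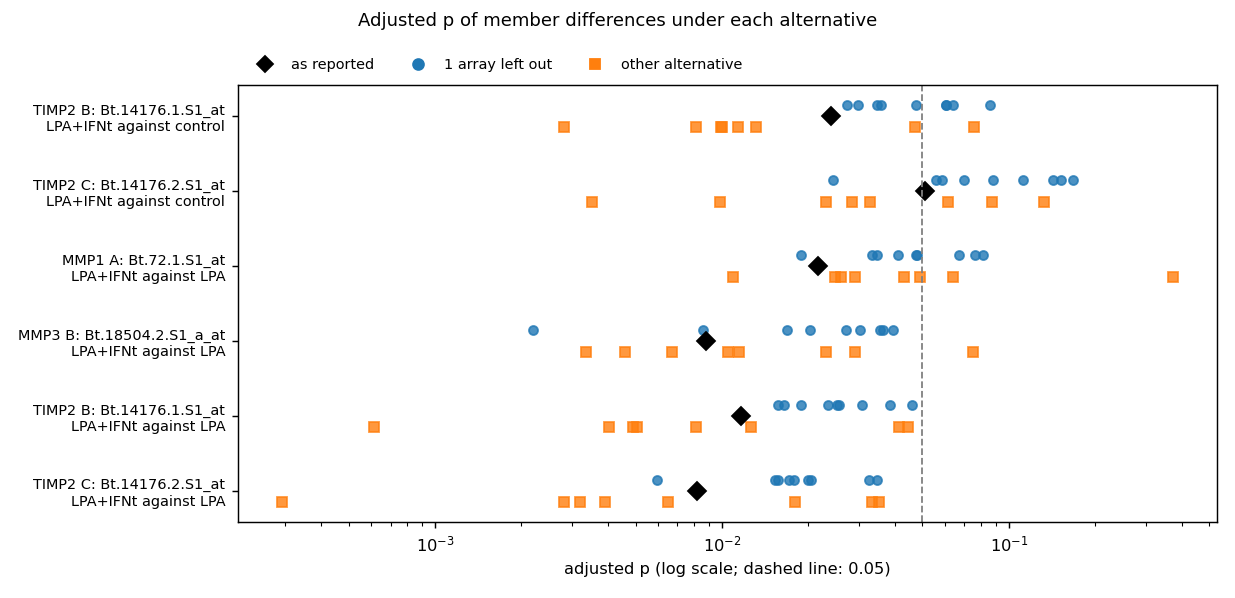
Adjusted p on a log axis for the member differences that were called, and for TIMP2 probe set C against control (0.0511), as reported and under each alternative. For TIMP2 in LPA+IFNt against LPA every point lies left of the dashed threshold of 0.05. MMP1 in LPA+IFNt against LPA and TIMP2 in LPA+IFNt against control have points on both sides. So does MMP3 in LPA+IFNt against LPA, through spike-in centring (0.0747).

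TIMP1, a broad inhibitor of secreted MMPs, was slightly higher on every LPA array than on every Control array and was not called. Probe set B read 13.29, 13.26 and 13.09 in Control, 13.51, 13.36 and 13.54 with LPA and 13.31, 13.21 and 13.32 with LPA+IFNt. Its difference was 0.26 in LPA against control (SE 0.07, unadjusted p = 0.00746, adjusted p = 0.335) and -0.19 in LPA+IFNt against LPA (SE 0.07, adjusted p = 0.215). Probe set A, whose type (suffix s) marks probes that can match transcripts of other genes, had 0.30 and -0.20 (adjusted p = 0.384 and 0.309). Both TIMP1 probe sets had the LPA arrays above both other groups.

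TIMP3, which is held in the matrix and also inhibits ADAM proteases, had 10.63, 10.59 and 10.80 in Control, 11.18, 10.72 and 11.18 with LPA and 10.76, 10.50 and 10.90 with LPA+IFNt. LPA replicates 1 and 3 were the highest arrays, and LPA replicate 2 lay inside the range of Control. The difference was 0.35 in LPA against control (SE 0.15, unadjusted p = 0.0498, adjusted p = 0.602), 0.04 in LPA+IFNt against control (SE 0.15) and -0.31 in LPA+IFNt against LPA (SE 0.15, adjusted p = 0.364).

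**Figure D4:**
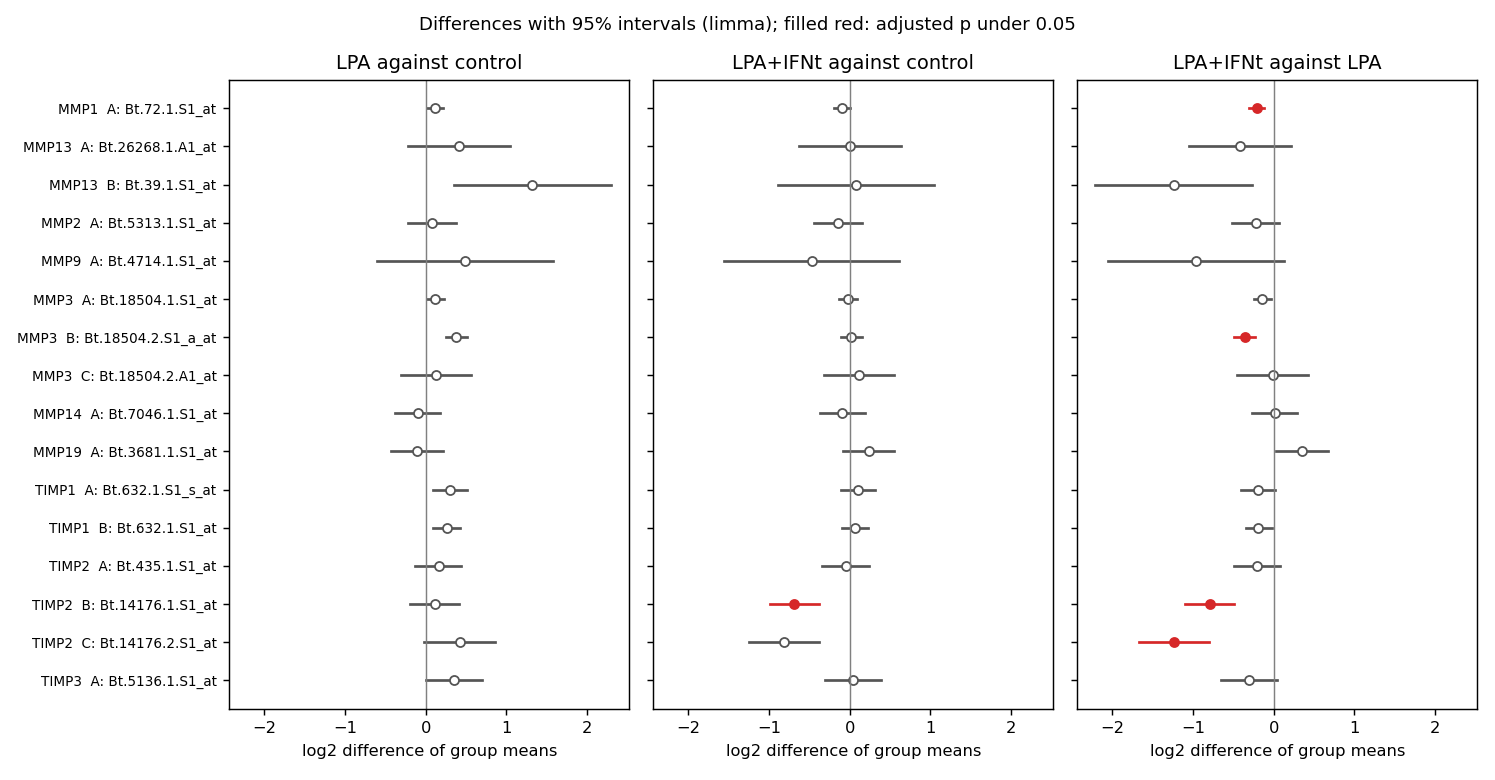
Log2 difference of group means with its 95% interval (horizontal axis) for the 16 member probe sets above the trp value (vertical axis) in each comparison; filled red points have adjusted p under 0.05. In LPA against control 0 are filled, in LPA+IFNt against control 1 (TIMP2) and in LPA+IFNt against LPA 4 (MMP1, MMP3 and TIMP2).

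Over the 19 member probe sets the median difference was 0.13 in LPA against control (range -0.11 to 1.32), 0.00 in LPA+IFNt against control (-0.82 to 0.24) and -0.21 in LPA+IFNt against LPA (-1.24 to 0.35), beside 0.002, 0.018 and 0.019 over all probe sets. Over the 16 above the trp value it was 0.21, -0.01 and -0.22, beside -0.003, -0.037 and -0.023 over all 15053 such probe sets. The comparisons share the LPA or the Control arrays, so these medians are not independent of each other. The arrays of LPA and Control did not overlap for 6 of 19 member probe sets, all higher with LPA, where 10% of all probe sets did not overlap in either direction. The 6 were MMP1, A and B of MMP3, A and B of TIMP1, and C of TIMP2, so some genes count more than once. LPA+IFNt lay apart from Control for 3 (all lower, against 23.1% of all probe sets) and from LPA for 9 (8 lower, against 18.7% of all). These shares also count both directions, and all 3 shares include probe sets below the trp value.

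The MMP9, MMP13 and TIMP3 values after LPA depended on which LPA array was left out. LPA replicate 2 was the lowest of the 3 LPA arrays for 12 of the 16 member probe sets above the trp value, whereas over all 15053 probe sets above that value it was lowest for 32.9%. For MMP9, TIMP3 and probe sets A and B of TIMP2, replicate 2 was the lowest in Control and in LPA+IFNt too. For neither MMP13 probe set was this so. Leaving out LPA replicate 2 alone keeps the same-numbered arrays of the other groups, so the differences then also carry any deviation shared by replicate number. Since LPA replicate 2 was singled out for its low member values, leaving it out raises the LPA means of those members by construction, and calls gained that way are a description only. Without it, 0 members were called in LPA against control, where 169 probe sets (0.704%) were called in all. MMP13 by probe set B then stood at 1.76 (SE 0.32, adjusted p = 0.078), MMP9 at 1.03 (SE 0.31, adjusted p = 0.206), TIMP3 at 0.50 (SE 0.12, adjusted p = 0.137) and MMP3 by probe set B at 0.39 (adjusted p = 0.0639). Without LPA replicate 3 the values moved the other way: probe set B of MMP13 stood at 0.91 (adjusted p = 0.799), A at 0.11, MMP9 at 0.12 and TIMP3 at 0.27. Over all 9 arrays left out in turn, LPA against control ranged from 0.91 to 1.76 for probe set B of MMP13 and from 0.12 to 1.03 for MMP9, with 0 calls.

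LPA+IFNt against LPA had 7 of 19 member probe sets called without LPA replicate 2, from 5 genes and all lower. Of all probe sets 9.18% were called and 6.14% were called lower. MMP13 by probe set B (-1.68, adjusted p = 0.0253), MMP9 (-1.50, adjusted p = 0.0305) and TIMP2 by probe set A (-0.35, adjusted p = 0.0351) passed beside MMP1, MMP3 and the other TIMP2 probe sets. Without LPA replicate 3, MMP13 by probe set B stood at -0.83 (adjusted p = 0.33), MMP9 at -0.59 (0.65) and TIMP2 by probe set A at -0.11 (0.696).

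Some stromal markers were lower with LPA+IFNt in both comparisons. Against control 3 of 13 were lower and 0 higher (median -0.14). In that comparison TIMP2 stood at -0.69 and -0.82 by probe sets B and C and at -0.05 by A. MMP1 stood there at -0.10 without a call, MMP3 by probe set B at 0.02, and MMP13 at 0.00 and 0.08. With LPA+IFNt against LPA, 5 of 13 stromal markers were lower and 0 higher (median -0.33), among them COL3A1 (-0.54), THY1 (-0.69) and FBN1 (-0.40), beside 1 of 15 epithelial markers lower (SPINT2, -0.45, epithelial median 0.06). The summed linear level of the 13 stromal markers was 104912 to 114166 in Control, 109521 to 119330 with LPA and 93723 to 95502 with LPA+IFNt, and that of the 15 epithelial markers 54413 to 57894, 54846 to 56043 and 55487 to 58473. In bulk RNA, fewer stromal cells and less RNA per cell cannot be told apart, and the part of either in the MMP1, MMP3 and TIMP2 values was not tested. Smooth muscle and pericyte markers had 1 of 9 called in that comparison, ACTA2, a contractile actin, at -1.05 (adjusted p = 0.00853). Their summed level was 1798 to 2104 in Control, 2162 to 2968 with LPA and 1382 to 1600 with LPA+IFNt, and their part in the member values was not tested. The summed leukocyte markers, of which 7 of 19 lay above the trp value, were 368 to 564 in Control, 374 to 878 with LPA and 354 to 506 with LPA+IFNt. The called leukocyte marker, CD53, a leukocyte membrane protein, was higher with LPA+IFNt by 1.26 against control (adjusted p = 0.0252) and by 1.15 against LPA (0.0336). The part of leukocyte markers in the MMP9 values was not tested.

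The wider MMP system was read from gene lists by the brightest probe set of each gene. Beside them, over all 9155 genes, 3.43% were called higher and 3.13% lower in LPA+IFNt against control, and 3.75% higher and 4.16% lower in LPA+IFNt against LPA; medians over all genes were -0.003, -0.006 and 0.01 in the 3 comparisons. In LPA against control 0 genes of these 6 lists were called, with medians of -0.01 to 0.04. Of other MMPs and TIMP4, 4 of 16 were measured and all 4 lay below the trp value, with TIMP4 at -0.02 after LPA and MMP15 at 0.03 in both comparisons with LPA+IFNt. Of ADAM and ADAMTS proteases, relatives of the MMPs that TIMP3 can block, 0 of 10 measured were called in any comparison; ADAMTS1 stood at 0.64 after LPA (adjusted p = 0.505), ADAMTS6 at 0.15 in LPA+IFNt against control (0.168) and ADAMTS4 at -0.41 in LPA+IFNt against LPA (0.27).

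Genes of MMP activation, inhibition and uptake had 17 of 25 measured. THBS2, a matrix protein that aids the uptake of MMP2, fell in LPA+IFNt by 0.64 against control (SE 0.07, adjusted p = 0.00184) and by 0.89 against LPA (SE 0.07, adjusted p = 0.000307). PLAUR, the urokinase receptor, rose by 0.39 against control (adjusted p = 0.0057), and the protease inhibitor gene SERPINE2 fell by 0.26 against LPA (adjusted p = 0.023). That made 1 higher and 1 lower against control and 2 lower against LPA, with list medians of 0.04 and 0.02. After LPA alone PLAUR stood at 0.27 (adjusted p = 0.169).

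Matrix substrates had 32 of 40 measured. In LPA+IFNt 5 were lower against control and 9 lower against LPA, with 0 higher in each and medians of -0.13 and -0.21, or -0.07 and -0.11 with the median over each gene's probe sets. The collagen genes COL3A1 (-0.51, adjusted p = 0.00153) and COL1A1 (-0.39, 0.034) and the microfibril gene FBN1 (-0.39, 0.00797) fell against control, and by -0.54, -0.55 and -0.40 against LPA. These 3 genes are stromal markers too. VCAN, a matrix proteoglycan, stood at 0.27 after LPA (adjusted p = 0.56).

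Among AP-1 and ETS transcription factors, families known to bind MMP promoters, 17 of 25 were measured. ETS1 (0.60, adjusted p = 0.0233) and ATF3 (0.38, 0.0188) rose and JUND (-0.34, 0.00946) fell in LPA+IFNt against control, and JUN (0.42, 0.0218) rose and JUND (-0.33, 0.00987) fell against LPA. ETS1 stood at 0.45 after LPA (adjusted p = 0.263). Of 17 measured genes for known inducers of MMPs, IL6 rose (0.43 against control, adjusted p = 0.0038, and 0.34 against LPA, 0.0111) and the interleukin 1 receptor gene IL1R1 fell (-0.91, adjusted p = 0.000101, and -0.86, 0.000142), with list medians of 0.01 and 0.02. IL1B stood at 0.64 after LPA (adjusted p = 0.657).

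By their brightest probe set, MMP9, MMP13 and TIMP3 had the widest ranges of group means (0.96, 0.42 and 0.35). The genes whose values on the 9 arrays were most like those of MMP9, among 7029 named genes above the trp value, were SFXN1 (Pearson r = 0.990), BCAS4 (0.979) and CTSB (0.976). For MMP13 they were KNG1 (0.958), LRP11 (0.950) and GRO1 (0.949), and for TIMP3 QSOX1 (0.975), GNG5 (0.974) and BCL2 (0.968). Spearman's rho was 0.97 to 0.98, 0.77 to 0.97 and 0.93 to 0.98 for these genes. Without the 2 arrays farthest from the member's median, r was 0.918 to 0.972 for MMP9, 0.779 to 0.906 for MMP13 and 0.897 to 0.935 for TIMP3. The arrays share pools' cows and groups, and the highest of 7029 values is high by selection.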

How the data were processed

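Expression was measured on 9 Affymetrix arrays, 1 per pooled sample, from RNA amplified from the 3′ end per the labels' protocols. The deposited values are log2 expression values per probe set, which the authors computed by RMA with Partek software (per the submitters' processing notes, no version named). RMA corrects background, gives arrays 1 distribution and summarises probes, so a shift shared by most transcripts would be hidden; base 2 is assumed, since RMA normally gives it and the values fit that range. Of 24128 probe sets, 112 controls were left out. Gene symbols came from the array's annotation, updated through gene identifiers in RefSeq; 13292 probe sets had 1 symbol, 86 several and 10638 none.

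Groups were compared by two-sided moderated tests (limma 3.58.1, under R 4.3.3), all 9 arrays in 1 fit, with no covariate and no filter, adjusted over 24016 probe sets. The fit was tested on simulated data. The text names every member, up to 3 called genes per list or else the 1 with the smallest p, and the 3 most similar genes of 3 members. Members and lists were chosen with earlier results of these data known. Same-numbered arrays of different groups deviated together in all 9 pairs (r of 0.19 to 0.49, other pairs -0.47 to 0.14), so the number was also fitted as a block. Spike-in scaling used 16 hybridisation control probe sets. The number of arrays limits the precision.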

Additional observations from a re-analysis of the deposited data

How the results depend on the processing

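The numbers below are member genes with at least 1 called probe set. In LPA against control the count was 0 as reported and in each alternative except the variance trend (1, MMP3) and array weights (2, MMP3 and MMP13). In LPA+IFNt against control it was 1 (TIMP2), and 0 with no variance moderation; with 1 array left out it was 0 to 1. In LPA+IFNt against LPA it was 3, and 1 (TIMP2) with spike-in centring; with 1 array left out it was 2 to 5. The F test gave 3, and 1 with no variance moderation (MMP3), 1 with spike-in centring (TIMP2) and 5 with array weights. With 1 array left out it was 2 to 4. Calls over all 24016 probe sets moved as well. By the F test they were 1439 as reported, 783 with no variance moderation, 1340 with spike-in centring and 4495 with array weights. In LPA against control they were 17 as reported, 36 with the variance trend and 449 with array weights. LPA+IFNt against control had 1282 as reported and 788 with no variance moderation. LPA+IFNt against LPA had 1571 as reported and 1300 with spike-in centring. With the replicate block the member gene counts were 0, 1 and 4, and 3 for the F test, where MMP13 replaced MMP1. Over all probe sets the block called 11, 2085 and 2320 in the 3 comparisons, and 2276 by the F test. Beyond MMP1 and MMP13 the block changed no member's call. Over 1017 values of member differences under an alternative, 16 gained a call, 12 lost one, 46 changed sign without a call and 0 called differences changed sign. For averaged probe sets this tally set the gene's average beside each of its probe sets, so 1 average could count more than once. Spike-in centring moved the median of all probe sets by 0.03 to 0.06. The number of arrays, and 3 member probe sets at the level of the trp controls, limit what could be seen; causes of these changes were not tested.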
